A study of Mus musculus with 27 samples.

Results

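Stimulated mouse CD8+ T cells that had lost Rictor were compared with wild-type (WT) cells by RNA sequencing. Groups were taken from the labels: 3 libraries of Rictor KO cells were set against 3 libraries of WT cells, 6 of the 27 libraries of the series, across all genes of the count table. Of 26802 genes in that table, 10493 passed the filter on low counts and were tested. Stimulated CD8+ cells that lack Raptor (3 libraries) were used to see where the response to Rictor loss differs.

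Rictor KO cells came from B6 mice with floxed alleles of Rictor and a Cre recombinase driven by CD4 (CD4-cre;Rictor fl/fl), Raptor KO cells from B6 mice with floxed Rptor and the same Cre, and WT cells from B6 mice with neither. CD4-driven Cre acts in developing T cells at the stage when both CD4 and CD8 are present, so the deletion predates the culture, and the gene is lost from CD4+ and CD8+ T cells alike. All 3 groups were CD8+ cells that had been isolated by negative magnetic sorting from pooled lymph node and spleen and cultured for 48 h on plate-bound antibodies to CD3 and CD28 (10 µg/ml), the signals of the antigen receptor and of its main costimulatory receptor. Live cells were then sorted. The labels give neither the age of the mice nor whether libraries of a group came from separate animals, so p-values measure the spread between these libraries, which may be technical.

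The kinase mTOR works in a pair of complexes. Rictor is the defining subunit of mTORC2, which phosphorylates the hydrophobic motif of Akt and activates the kinases SGK1 and PKC, and through Akt and SGK1 it keeps FOXO transcription factors out of the nucleus. Raptor defines mTORC1, which drives protein, lipid and nucleotide synthesis. In T cells mTORC2 has been tied to effector differentiation and mTORC1 to growth and metabolic reprogramming.

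The libraries held 13885920, 15071526 and 16817347 counts in Rictor KO cells, against 11985929, 11449525 and 14036675 in WT cells. The ribosomal RNA precursor Rn45s took 84.5, 83.3 and 88.4% in Rictor KO and 84.2, 86.7 and 83.9% in WT libraries and was left out, which left 1950381 to 2515583 counts in Rictor KO and 1522199 to 2263964 in WT libraries for all other genes. Of these remaining counts, protein-coding genes held 59.2, 60.4 and 44.8% in Rictor KO and 52.9, 49.9 and 62.5% in WT libraries (exact two-sided permutation p = 1.0; 3 against 3 libraries cannot go below 0.1). Each title carries a library code. All Rictor KO libraries carry StP219, while WT libraries 1, 2 and 3 carry StP212, StP213 and StP219, so only WT library 3 shares the code of the Rictor KO libraries. Raptor KO libraries 1, 2 and 3 also carry StP212, StP213 and StP219, in that order. What the code stands for is not given in the sources used here. Levels are given as CPM, which puts all libraries on the same effective size, and differences are log2 fold changes ± SE of Rictor KO over WT unless another pair is named. Adjusted p-values come from edgeR (quasi-likelihood F test, Benjamini-Hochberg over all 10493 genes), and 0.05 was the threshold for a call.

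The labels were checked on the lineage and targeted genes. Cd8a and Cd8b1, which encode the CD8 coreceptor, measured 82.8, 104 and 106 CPM and 66.3, 80.2 and 68.8 CPM in Rictor KO libraries, against 128, 110.3 and 117 CPM and 84.7, 80.8 and 73 CPM in WT libraries, and Cd4 had at most 5 counts in any of the 6. The pan-T-cell gene Cd3e measured 84.7, 91.3 and 93.9 CPM in Rictor KO and 65, 57.3 and 73 CPM in WT libraries (0.46 ± 0.13, adjusted p = 0.219). Rictor itself (ENSMUSG00000050310, chromosome 15, 6708379 to 6800401 on GRCm38) measured 38.1, 38.2 and 40.9 CPM in Rictor KO libraries and 49.7, 48.7 and 36.8 CPM in WT libraries, with overlap between the groups and a difference of -0.20 ± 0.16 (adjusted p = 0.961). In Raptor KO libraries it measured 65.3, 65.9 and 57.6 CPM, above all Rictor KO libraries (-0.68 ± 0.16 for Rictor KO over Raptor KO, adjusted p = 0.00177). The counts cover the whole gene and not the deleted exons alone, so they check the genotype only weakly, and it rests on the labels. None of the 9 tested genes for subunits and assembly factors of the mTOR complexes passed in edgeR (1 at an unadjusted p under 0.05). Mapkap1, which encodes the mTORC2 subunit mSIN1, differed by -0.02 ± 0.21, Mtor by -0.23 ± 0.14 and Rptor by 0.23 ± 0.19. Within 10 Mb of Rictor on chromosome 15, 30 other genes were tested and 0 were called in edgeR (2 at an unadjusted p under 0.05), with a median difference of 0.08.

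Few genes differed between Rictor KO and WT cells. Against WT, 17 of 10493 tested genes passed the threshold (0.162%), 11 higher (0.105%) and 6 lower (0.0572%) in Rictor KO cells. The genes that fell were the cytokine genes Ifng and Lta, the cell cycle inhibitor Cdkn1a, the SGK1 substrate gene Ndrg1, the protease gene Adam19 and Gm49751, a predicted transcript at the Ifng locus. Those that rose were Aff3, Trib2, Igf1r, Plac8, Il6ra, Cd28, Cd52, Atp2a3, Evl, Gbp5 and Tcrg-C2. The libraries of the 2 groups did not overlap for any of the 17, as for 13.5% of all tested genes. At an unadjusted p under 0.05, 284 genes were higher (2.71%) and 349 lower (3.33%), and the median of all tested genes was 0.00. When library sizes were set by totals that include Rn45s, which moved that median to -0.07, 1 gene was called higher and 4 lower. The shares of all genes given here are the background for the list counts of Rictor KO against WT that follow.

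**Figure D1:**
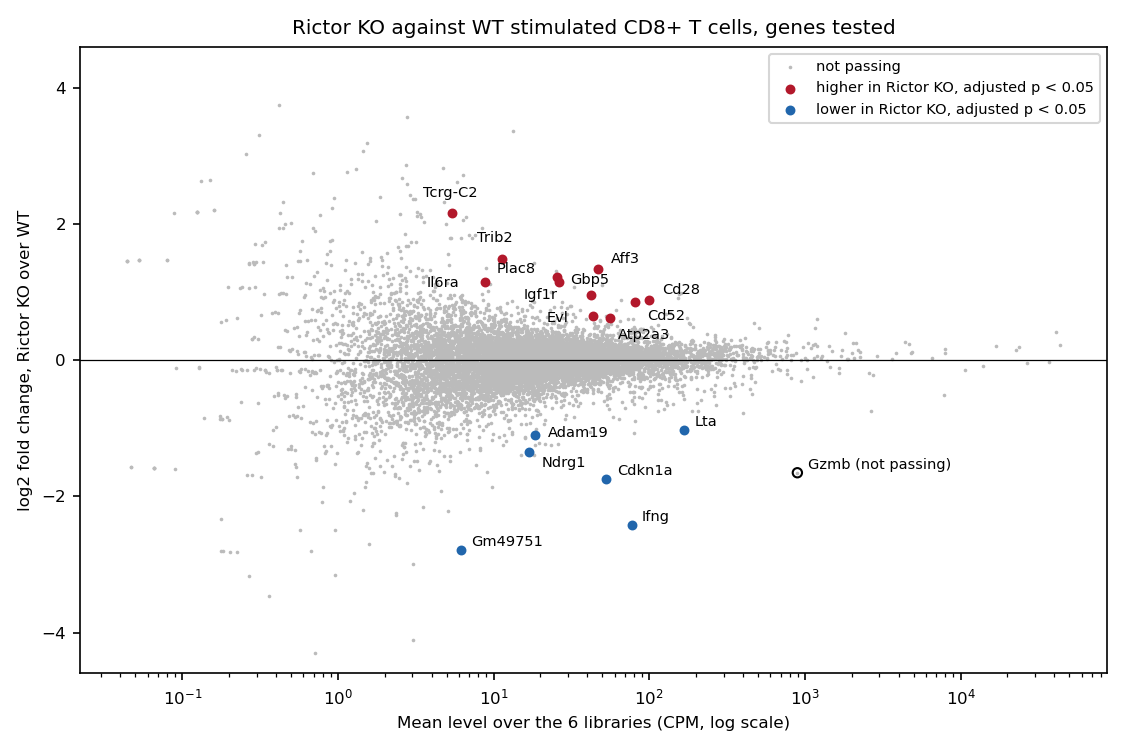
Mean level over the 3 Rictor KO and 3 WT libraries (CPM, log scale) against the log2 fold change of Rictor KO over WT. Each point is a tested gene, 14 genes with no counts in these libraries are not drawn, red and blue points mark the 11 higher and 6 lower genes past the threshold, and the open circle marks Gzmb, which did not pass. The called genes run from -2.79 (Gm49751) to 2.16 (Tcrg-C2).

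The number of calls rests on single libraries. Leaving out Rictor KO library 1, 2 or 3 gave 5, 5 and 3 calls in edgeR, and leaving out WT library 1, 2 or 3 gave 1, 6 and 27. Aff3 passed in all 6 of these fits, Trib2 and Igf1r in 5 and Plac8 in 3, while 11 of the 17 genes passed in 1 fit and 2 (Cd28 and Atp2a3) in none. Tested in edgeR against a minimum fold of 1.5, 0 genes passed (142 at its unadjusted p under 0.05). The sign of each of the 17 differences was the same under every alternative tried.

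**Figure D2:**
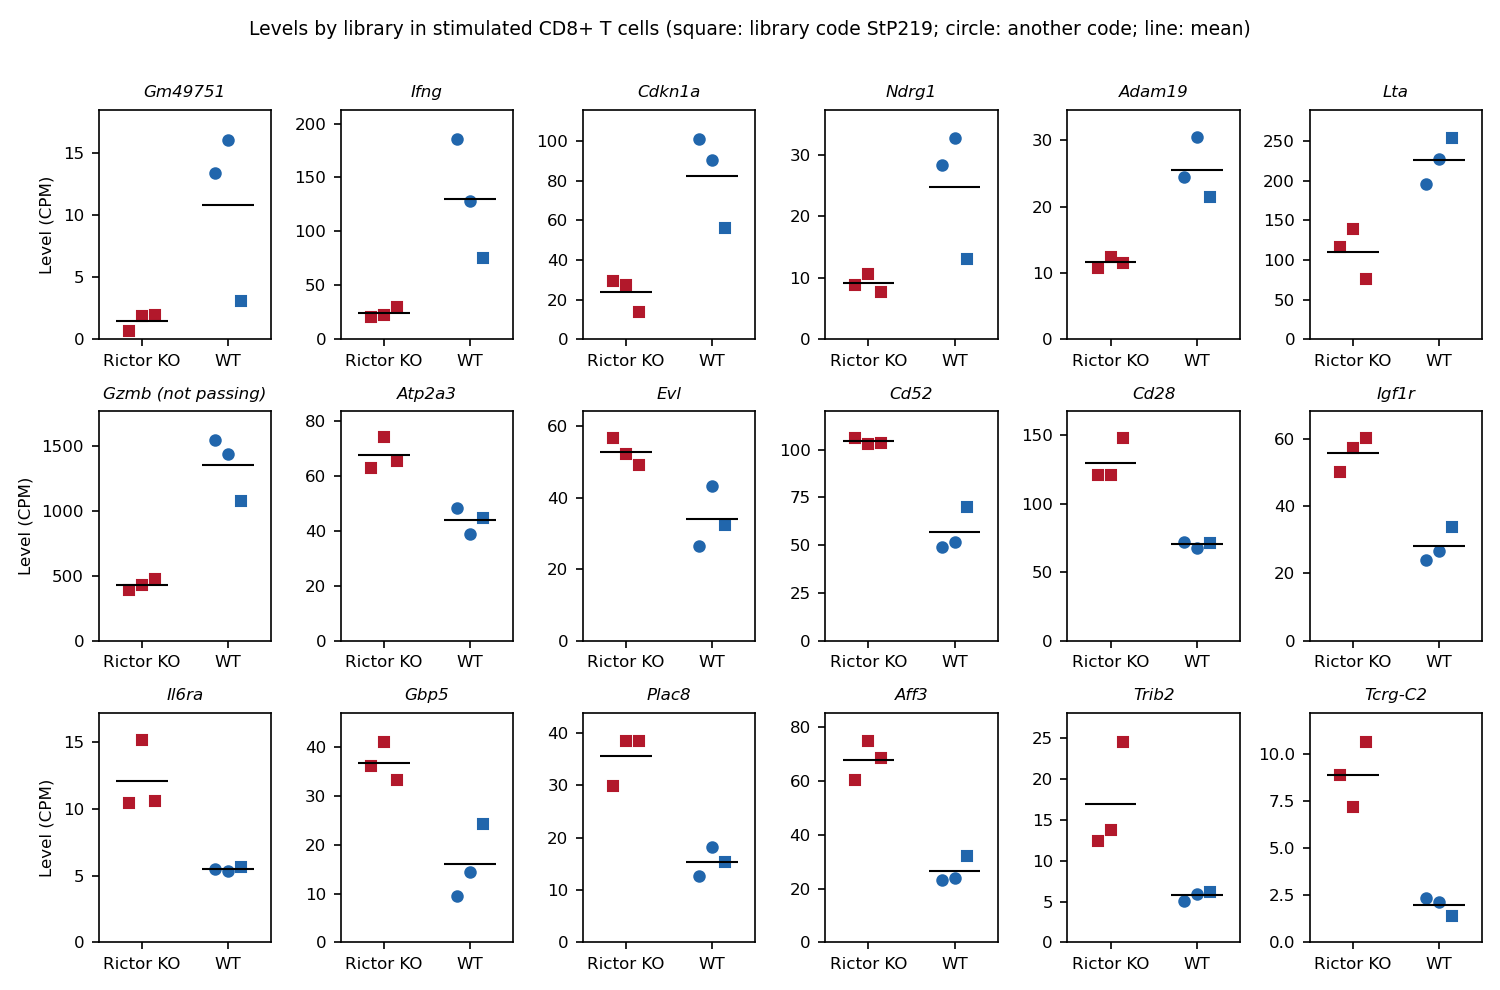
Level (CPM, axes from 0) of the 17 called genes and of Gzmb in each library, Rictor KO left and WT right in every panel. Squares are libraries with code StP219, circles other codes, lines means of 3. Among the 6 genes that fell, the WT square lies nearest to the Rictor KO libraries for Ifng, Cdkn1a, Ndrg1, Adam19 and Gm49751 and farthest from them for Lta.

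Among the 6 genes that fell, the largest decreases were at the Ifng locus. Ifng (ENSMUSG00000055170, chromosome 10, 118441046 to 118445892), which encodes interferon gamma, the signature cytokine of effector CD8+ cells, measured 20.9, 22.6 and 29.9 CPM in Rictor KO libraries, against 185, 128 and 75.5 CPM in WT libraries. The 3 Rictor KO values are close together and all are below the lowest WT value, that of WT library 3. The difference was -2.42 ± 0.37 (adjusted p = 0.0204). In Raptor KO libraries Ifng measured 188, 224 and 106 CPM, so the Rictor KO libraries were also below all Raptor KO libraries (-2.83 ± 0.37 for Rictor KO over Raptor KO, adjusted p = 9.27e-05). Gm49751 (ENSMUSG00000111913, chromosome 10, 118441419 to 118444140), a predicted transcript that overlaps the Ifng gene, fell too (-2.79 ± 0.56, adjusted p = 0.0205), with 0.634, 1.86 and 1.93 CPM in Rictor KO and 13.4, 16.1 and 3.11 CPM in WT libraries. Its reads and those of Ifng cannot be told apart without a stated strand setting, so the pair counts as 1 observation.

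Lta (ENSMUSG00000024402, chromosome 17, 35203165 to 35205351), which encodes lymphotoxin alpha, a secreted cytokine of the tumour necrosis factor family, measured 116, 139 and 76.6 CPM in Rictor KO libraries, against 196, 227 and 254 CPM in WT libraries. WT library 3 is here the highest of the 6. The difference was -1.02 ± 0.20 (adjusted p = 0.0223), and the Raptor KO libraries, with 124, 156 and 119 CPM, were also below WT (-0.77 ± 0.20, adjusted p = 0.0116). The neighbouring cytokine gene Tnf did not pass, with 46.6, 40.6 and 62.6 CPM in Rictor KO and 50.8, 58.3 and 45.5 CPM in WT libraries (-0.05 ± 0.30). Of 16 tested effector cytokine genes, 2 were called lower and 0 higher in Rictor KO cells, with a median of -0.28, against 0.00 for all genes. Il2, the T cell growth factor, measured 28.9, 17.5 and 18.8 CPM in Rictor KO libraries, inside the WT range of 5.91, 3.21 and 46.7 CPM, where WT library 3 stands far above the other two.

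Gzmb (ENSMUSG00000015437, chromosome 14, 56258838 to 56262260), which encodes granzyme B, the protease that cytotoxic granules deliver into target cells, measured 394, 428 and 473 CPM in Rictor KO libraries, against 1552, 1441 and 1080.4 CPM in WT libraries. The highest Rictor KO value is less than the lowest WT value, and the 2 groups are well separated on a linear scale. The difference of -1.65 ± 0.34 missed the threshold (adjusted p = 0.0626), and passed it with DESeq2 (adjusted p = 7.75e-10) and limma-voom (2.76e-05). Gzmb passed in 7 of 18 alternatives. It passed in 0 of the 6 edgeR fits that leave out a library, and not with the library code as a term (adjusted p = 0.171). The perforin gene Prf1, whose product lets granzymes enter, measured 13.6, 14.6 and 14 CPM in Rictor KO and 20.5, 18.7 and 19.5 CPM in WT libraries (-0.48 ± 0.26, adjusted p = 0.864). The granule protease gene Ctsw measured 3.17, 5.84 and 4.33 CPM in Rictor KO, 46.9, 42.9 and 42.3 CPM in Raptor KO and 8.67, 13.9 and 4.81 CPM in WT libraries. It was lower in Rictor KO than in Raptor KO cells by a difference of -3.25 ± 0.27 (adjusted p = 1.21e-11), but did not pass against WT (-0.89 ± 0.33, adjusted p = 0.507). Of 9 tested cytotoxic genes 0 were called in edgeR against WT (2 lower at an unadjusted p under 0.05, 1 call with DESeq2), and the median was -0.27. In bulk RNA, fewer cells that express such a gene and less RNA per cell cannot be told apart.

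None of the 23 effector and memory transcription factors passed in edgeR, and 2 were higher and 2 lower at an unadjusted p under 0.05. Tbx21, which encodes T-bet, an activator of Ifng, measured 35.2, 40.6 and 31.3 CPM in Rictor KO and 33.5, 26.2 and 54.9 CPM in WT libraries, with overlap (-0.12 ± 0.21). Eomes, the related T-box factor, measured 10.8, 9.29 and 15.9 CPM in Rictor KO and 13.8, 15 and 21.5 CPM in WT libraries (-0.54 ± 0.33, adjusted p = 0.922). Id3, a factor of memory precursor cells, measured 45, 37.2 and 29.4 CPM in Rictor KO and 20.5, 18.7 and 25.7 CPM in WT libraries, without overlap (0.77 ± 0.20, adjusted p = 0.144), and Zeb2, a factor of terminal effector cells, 8.56, 7.17 and 9.63 CPM in Rictor KO and 15.4, 10.7 and 18.1 CPM in WT libraries (-0.85 ± 0.31, adjusted p = 0.479).

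Promoters of the called genes were searched for the letters of 4 motifs on both strands, in the 250 bases before each gene start (RefSeq, GRCm38.p6). Of the 17 called genes 12 had a promoter in the table, 17 promoters in all. The STAT motif TTCNNNGAA stood in the promoters of Ifng, Lta and Gbp5, 3 of the 17, and in 7.02% of all 32851 promoters. The FOXO motif GTAAACA stood in 1, an Adam19 promoter (3.17% of all), the AP-1 motif TGANTCA in 1, also of Adam19 (6.75%), and the T-box motif TCACACCT in 1, of Plac8 (1.12%). The motifs were chosen after the values were seen. No factor binding was measured, and a match describes only letters in this window. The 3 promoters with the STAT letters are shown because they belong to the 2 cytokine genes that fell and to 1 interferon-induced gene that rose, each 5′ to 3′ on the gene's own strand and ending at the base before the gene start, with the STAT letters in capitals.
Ifng (chr10:118440796-118441045, plus strand): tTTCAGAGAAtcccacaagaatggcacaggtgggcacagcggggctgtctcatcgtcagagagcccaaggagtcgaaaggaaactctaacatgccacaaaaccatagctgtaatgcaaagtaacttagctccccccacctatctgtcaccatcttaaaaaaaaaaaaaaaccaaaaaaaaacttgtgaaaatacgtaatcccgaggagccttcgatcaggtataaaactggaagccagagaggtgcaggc
Lta (chr17:35205352-35205601, minus strand): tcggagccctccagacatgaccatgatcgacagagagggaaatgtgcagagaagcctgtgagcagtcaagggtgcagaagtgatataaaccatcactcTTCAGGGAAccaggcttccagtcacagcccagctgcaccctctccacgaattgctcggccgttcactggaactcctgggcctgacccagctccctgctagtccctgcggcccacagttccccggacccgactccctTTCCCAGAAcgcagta
Gbp5 (chr3:142496684-142496933, plus strand): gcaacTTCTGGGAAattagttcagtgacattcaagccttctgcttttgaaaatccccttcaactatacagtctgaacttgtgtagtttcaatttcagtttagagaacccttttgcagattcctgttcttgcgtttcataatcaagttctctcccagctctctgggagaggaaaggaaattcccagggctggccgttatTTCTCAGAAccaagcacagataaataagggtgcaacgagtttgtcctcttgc
The Ifng window holds 1 match, at its far end, and the windows of Lta and Gbp5 hold 2 each. Gene starts are those of RefSeq, and that of Gbp5 lies inside the GENCODE gene.

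Of the genes of cytokine signalling, 1 passed. Il6ra (ENSMUSG00000027947, chromosome 3, 89864059 to 89913196), the ligand-binding chain of the interleukin-6 receptor, rose, with 10.5, 15.1 and 10.6 CPM in Rictor KO libraries, against 5.52, 5.35 and 5.66 CPM in WT libraries (1.14 ± 0.24, adjusted p = 0.0213). The WT values are almost equal, and each Rictor KO value is well above them. Stat5a, a transcription factor that carries the IL-2 signal, measured 98.3, 102 and 84.3 CPM in Rictor KO and 133, 135 and 160.1 CPM in WT libraries, without overlap, but did not pass (-0.59 ± 0.15, adjusted p = 0.107). It was lower in Rictor KO than in Raptor KO cells, which held 269.5, 315 and 230.1 CPM (-1.51 ± 0.15, adjusted p = 6.54e-10). Stat3, the factor downstream of IL-6 and IL-21, differed by -0.62 ± 0.17 (adjusted p = 0.145), Stat5b by -0.49 ± 0.14 (0.219) and Il21r, the IL-21 receptor gene, by -0.60 ± 0.16 (0.124), each lower in every Rictor KO library than in every WT library. Cish, a feedback inhibitor that STAT5 induces, measured 49.2, 56.8 and 63.1 CPM in Rictor KO libraries and 112, 141 and 62.8 CPM in WT libraries, where library 3 lies inside the Rictor KO range (-0.89 ± 0.32, adjusted p = 0.512). The receptor genes Il2ra and Il2rb differed by -0.42 ± 0.28 and -0.11 ± 0.16 and did not pass. Of 23 genes of this list, 1 was called higher and 0 lower, 3 were higher and 5 lower at an unadjusted p under 0.05, and the median was -0.28. Stat5a and Il21r were named by rank, while Stat3, Stat5b and Cish, like Id3 and Zeb2, were picked from their lists after their values were seen.

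Cdkn1a (ENSMUSG00000023067, chromosome 17, 29090976 to 29100727), which encodes the cell cycle inhibitor p21 and is a classic target of p53, fell. It measured 29.5, 27.3 and 14 CPM in Rictor KO libraries, against 101, 90.5 and 56.3 CPM in WT libraries (-1.75 ± 0.35, adjusted p = 0.0449). Raptor KO libraries held 27.6, 27.7 and 7.06 CPM (-2.08 ± 0.38 against WT, adjusted p = 0.0012), and the 2 knockouts did not differ past the threshold (0.33 ± 0.41, adjusted p = 0.645). That difference between the knockouts moved with the libraries used. It was 0.91 with the library code as a term (adjusted p = 0.0511 in edgeR), 1.82 within StP219 and -0.18 without Raptor KO library 3. Of 20 tested p53 targets, Cdkn1a was the only call, and the median was -0.47. At an unadjusted p under 0.05, 9 were lower and 0 higher, against 3.33% and 2.71% of all genes. Leaving out 1 library at a time left 6 to 9 lower at that unadjusted p. Among those that did not pass, and chosen after their values were seen, Bbc3, which encodes the death-promoting protein PUMA, measured 3.17, 7.7 and 8.18 CPM in Rictor KO and 12.6, 15.5 and 12.4 CPM in WT libraries (-1.09 ± 0.28, adjusted p = 0.124). Plk2, a kinase gene induced by p53, measured 6.34, 6.37 and 7.7 CPM in Rictor KO and 15.8, 19.3 and 13.6 CPM in WT libraries (-1.24 ± 0.33, adjusted p = 0.144), and Ccng1, a cyclin gene in the same pathway, 84.4, 69.5 and 65.5 CPM in Rictor KO and 123, 98 and 100.4 CPM in WT libraries (-0.55 ± 0.16, adjusted p = 0.21). Mdm2, the p53 ubiquitin ligase, differed by -0.30 ± 0.15. In Raptor KO against WT, 10 of the 20 p53 targets were called lower and 0 higher (5.42% and 6.30% of all genes), with a median of -0.83. In the direct comparison, 7 of the 20 were higher and 2 lower in Rictor KO than in Raptor KO cells (7.00% and 8.30% of all genes). Plk2 was lower in Rictor KO than in Raptor KO cells (-1.95 ± 0.32, adjusted p = 2.84e-05), and Ccng1 was higher in Rictor KO than in Raptor KO cells (1.04 ± 0.17, adjusted p = 2.84e-05).

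Genes of proliferation showed no calls beside Cdkn1a. Of 39 DNA replication genes 0 passed in edgeR (0 at an unadjusted p under 0.05), with a median of 0.09, and of 34 genes of mitosis 0 passed (0 at an unadjusted p under 0.05), with a median of 0.01. Mki67, the proliferation marker, measured 241, 238 and 189 CPM in Rictor KO and 249, 218 and 256 CPM in WT libraries (-0.12 ± 0.38). Of 28 genes that mark T cell activation 0 passed in edgeR (0 higher and 4 lower at an unadjusted p under 0.05). The early activation gene Cd69 differed by 0.28 ± 0.20 and the adhesion receptor gene Cd44 by -0.11 ± 0.27.

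Closer to mTORC2 itself, Ndrg1 (ENSMUSG00000005125, chromosome 15, 66929318 to 66969640), whose protein is phosphorylated by SGK1 and serves as a readout of mTORC2 activity, fell at the RNA level. It measured 8.88, 10.6 and 7.7 CPM in Rictor KO libraries, 31, 38.7 and 21.6 CPM in Raptor KO libraries and 28.4, 32.7 and 13 CPM in WT libraries. The difference was -1.36 ± 0.30 against WT (adjusted p = 0.0449) and -1.69 ± 0.30 against Raptor KO (adjusted p = 0.00014). WT library 3 lies near the Rictor KO values, while no Raptor KO library does. Ndrg1 was the only call among 27 genes of the PI3K, Akt, SGK and PKC pathway, whose median was 0.00. Akt1 differed by 0.14 ± 0.13 and Akt2 by -0.07 ± 0.16, and Pik3cd, the catalytic PI3K subunit of lymphocytes, measured 186, 210.5 and 234 CPM in Rictor KO and 148, 144 and 120.2 CPM in WT libraries (0.61 ± 0.16, adjusted p = 0.124; named after its values were seen).

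Trib2 (ENSMUSG00000020601, chromosome 12, 15791727 to 15816922), a pseudokinase gene on the list of FOXO targets, rose. It measured 12.4, 13.8 and 24.6 CPM in Rictor KO libraries, 3.35, 2.09 and 6.27 CPM in Raptor KO libraries and 5.12, 5.89 and 6.22 CPM in WT libraries. The difference was 1.49 ± 0.24 against WT (adjusted p = 0.0015) and 1.95 ± 0.28 against Raptor KO (adjusted p = 1.86e-06). Every Rictor KO value is above every value of the other 2 groups, and Rictor KO library 3 is the highest. Of 24 genes on that list, Trib2 was the only call, 3 were higher and 5 lower at an unadjusted p under 0.05, and the median was -0.21. Klf2, a FOXO1 target that keeps T cells quiescent, measured 0.317, 0.531 and 1.44 CPM in Rictor KO and 2.36, 0.535 and 1.7 CPM in WT libraries, a few counts in each. Il7r, the IL-7 receptor gene and another FOXO1 target, measured 12.4, 11.9 and 21.2 CPM in Rictor KO and 22.1, 31.6 and 11.3 CPM in WT libraries (-0.50 ± 0.42), with overlap. Foxo1 differed by -0.26 ± 0.18 and Foxo3 by -0.21 ± 0.15. Of 28 genes of naive and quiescent T cells 0 passed in edgeR, 7 were higher and 2 lower at an unadjusted p under 0.05, and the median was 0.28. Tcf7, which encodes the naive and memory factor TCF1, measured 123, 128 and 113 CPM in Rictor KO and 84, 90.5 and 110.3 CPM in WT libraries (0.35 ± 0.13, adjusted p = 0.512).

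The gene with the smallest p was Aff3 (ENSMUSG00000037138, chromosome 1, 38177326 to 38664955), which encodes a nuclear protein of the AF4 family first described in lymphoid cells. It rose, with 60.3, 74.9 and 68.4 CPM in Rictor KO libraries, 20.1, 19.9 and 19.6 CPM in Raptor KO libraries and 23.3, 24.1 and 32 CPM in WT libraries. The Raptor KO values lie below all WT values and the Rictor KO values far above them. The difference was 1.34 ± 0.20 against WT (adjusted p = 0.000721) and 1.77 ± 0.21 against Raptor KO (adjusted p = 2.13e-07). Leaving out each library in turn gave 1.25 to 1.52 against WT.

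Receptors and membrane proteins made up much of the rest. Igf1r (ENSMUSG00000005533, chromosome 7, 67952827 to 68233668), the receptor tyrosine kinase for insulin-like growth factor, which signals to PI3K and Akt, measured 50.1, 57.3 and 60.2 CPM in Rictor KO libraries, against 24, 26.8 and 33.9 CPM in WT libraries (0.96 ± 0.16, adjusted p = 0.00235). In Raptor KO libraries it measured 7.53, 14.6 and 11 CPM and fell (-1.32 ± 0.21 against WT, adjusted p = 1.6e-05), so the 2 knockouts moved to opposite sides of WT, and the direct difference was 2.28 ± 0.20 (adjusted p = 2.25e-11). Cd28 (ENSMUSG00000026012, chromosome 1, 60716800 to 60773359), which encodes the costimulatory receptor that the plate-bound antibody engages, measured 121, 121 and 148 CPM in Rictor KO libraries, against 72.1, 67.4 and 71.6 CPM in WT libraries (0.88 ± 0.19, adjusted p = 0.0449). It was the only call among 16 inhibitory and costimulatory receptors, of which 6 were higher and 1 lower at an unadjusted p under 0.05. The inhibitory receptor gene Ctla4 measured 147, 145 and 208 CPM in Rictor KO, 28.5, 35.5 and 17.3 CPM in Raptor KO and 93, 128 and 89.7 CPM in WT libraries. Its difference from WT did not pass (0.69 ± 0.24, adjusted p = 0.474), while Rictor KO cells were above Raptor KO cells (2.65 ± 0.28, adjusted p = 8.75e-07). Pdcd1, which encodes the inhibitory receptor PD-1, differed by 0.79 ± 0.30 from WT (adjusted p = 0.516), and Tnfrsf9, the costimulatory receptor 4-1BB, measured 138, 151 and 170.0 CPM in Rictor KO and 275, 346 and 152 CPM in WT libraries, with WT library 3 inside the Rictor KO range.

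Cd52 (ENSMUSG00000000682, chromosome 4, 134082448 to 134095082), a small glycoprotein gene of the lymphocyte surface, measured 106, 103 and 104 CPM in Rictor KO libraries, against 49.3, 51.9 and 69.9 CPM in WT libraries (0.86 ± 0.18, adjusted p = 0.0293). Plac8 (ENSMUSG00000029322, chromosome 5, 100553725 to 100572245), which encodes a cysteine-rich protein of leukocytes, measured 29.8, 38.5 and 38.5 CPM in Rictor KO libraries, against 12.6, 18.2 and 15.3 CPM in WT libraries (1.22 ± 0.24, adjusted p = 0.0204). Both genes rose, and the Rictor KO values were tight for Cd52 and more spread for Plac8.

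Atp2a3 (ENSMUSG00000020788, chromosome 11, 72961169 to 72993044), the SERCA3 pump gene that returns calcium to the endoplasmic reticulum, measured 63.1, 74.3 and 65.5 CPM in Rictor KO libraries, against 48.5, 39.1 and 44.7 CPM in WT libraries (0.61 ± 0.13, adjusted p = 0.0306). Evl (ENSMUSG00000021262, chromosome 12, 108554720 to 108688516), an actin regulator of the Ena/VASP family, measured 56.8, 52.3 and 49.1 CPM in Rictor KO libraries, 22.6, 24 and 21.6 CPM in Raptor KO libraries and 26.4, 43.4 and 32.2 CPM in WT libraries. It rose in Rictor KO (0.65 ± 0.15, adjusted p = 0.0449) and fell in Raptor KO libraries (-0.57 ± 0.16, adjusted p = 0.0171). The Rictor KO differences of Atp2a3 and Evl are the smallest of the 17. mTORC2 is known for its role in the actin cytoskeleton, but of 29 genes on the list for actin and migration 0 passed in edgeR (1 higher and 1 lower at an unadjusted p under 0.05). Adam19 (ENSMUSG00000011256, chromosome 11, 46055992 to 46147343), a membrane metalloprotease gene, fell, with 10.8, 12.5 and 11.6 CPM in Rictor KO libraries, against 24.4, 30.5 and 21.5 CPM in WT libraries (-1.10 ± 0.23, adjusted p = 0.0208). The Rictor KO values are nearly equal and all below WT, with means of 11.6 ± 0.846 CPM in Rictor KO and 25.5 ± 4.6 CPM in WT libraries (SD, n = 3 each).

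Gbp5 (ENSMUSG00000105504, chromosome 3, 142493978 to 142522344), a guanylate-binding protein gene induced by interferons, rose. It measured 36.2, 41.1 and 33.2 CPM in Rictor KO libraries, against 9.46, 14.5 and 24.3 CPM in WT libraries (1.15 ± 0.25, adjusted p = 0.0336). Of 23 tested genes on the interferon list, which does not hold Gbp5, 0 passed in edgeR, and the median was 0.35. At an unadjusted p under 0.05, 9 were higher and 0 lower, against 2.71% and 3.33% of all genes. Without WT library 3, 4 were called higher, and without WT library 1, 4 were higher and 1 lower at an unadjusted p under 0.05 and the median was 0.16. The GTPase genes Gbp2, Gbp7, Iigp1 and Irgm1, named after their values were seen, differed by 1.10 ± 0.38, 1.11 ± 0.31, 1.32 ± 0.51 and 0.64 ± 0.18 (adjusted p = 0.497, 0.162, 0.617 and 0.15). Of the WT libraries, library 3 was the nearest to the Rictor KO libraries for each of them, and Iigp1 measured 45, 32.4 and 33.2 CPM in Rictor KO libraries, against 5.52, 2.68 and 31.1 CPM in WT libraries.

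**Figure D3:**
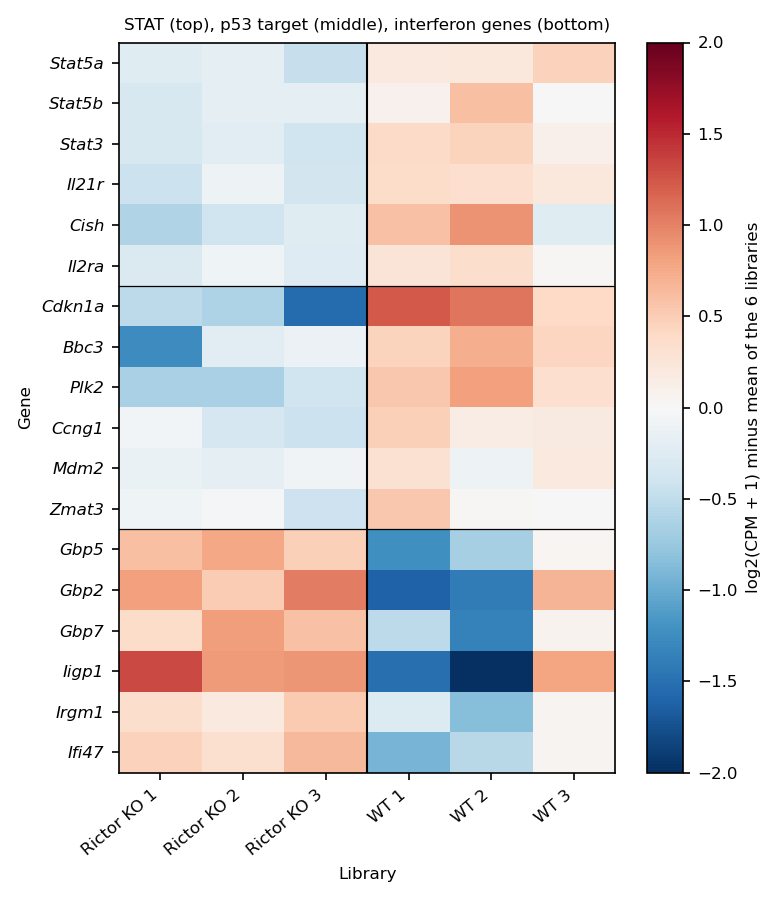
Level of 6 STAT-pathway genes (top), 6 p53 targets (middle) and 6 interferon-induced genes (bottom) in each library, as log2(CPM + 1) minus the gene's mean over the 6 libraries (colours stop at -2 and 2), Rictor KO left of WT. The genes were picked after their values were seen. Among them Cdkn1a and Gbp5 passed the threshold, and WT library 3 lies nearest to the Rictor KO libraries in the interferon genes.

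The T cell receptor gamma and delta chains, which define gamma-delta T cells, gave more counts in every Rictor KO than in every WT library. Tcrg-C2 (ENSMUSG00000076752, chromosome 13, 19304649 to 19307551), a constant region of the gamma chain, was called, with 8.88, 7.17 and 10.6 CPM in Rictor KO libraries, against 2.36, 2.14 and 1.41 CPM in WT libraries (2.16 ± 0.43, adjusted p = 0.0204). These are 28, 27 and 22 counts in Rictor KO libraries and 6, 4 and 5 in WT libraries. Trdc, the constant region of the delta chain, measured 8.56, 10.9 and 20.7 CPM in Rictor KO and 2.76, 4.82 and 2.83 CPM in WT libraries (1.94 ± 0.49, adjusted p = 0.143), and Tcrg-C1 had 8, 10 and 7 counts in Rictor KO and 1, 0 and 1 in WT libraries. The gamma constant regions are close paralogs, so how their reads were split is uncertain. Summed over Trdc, Tcrg-C1, Tcrg-C2 and Tcrg-C4, which were grouped after their values were seen, the level was 26, 25.7 and 47.7 CPM in Rictor KO libraries, against 7.49, 8.56 and 6.51 CPM in WT libraries (exact two-sided permutation p = 0.1, the smallest that 3 against 3 allows). WT library 3 is the lowest of the 6, and within code StP219 Tcrg-C2 differed by 2.57. Raptor KO libraries held 12.6, 7.84 and 15.3 CPM, below all Rictor KO libraries.

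**Figure D4:**
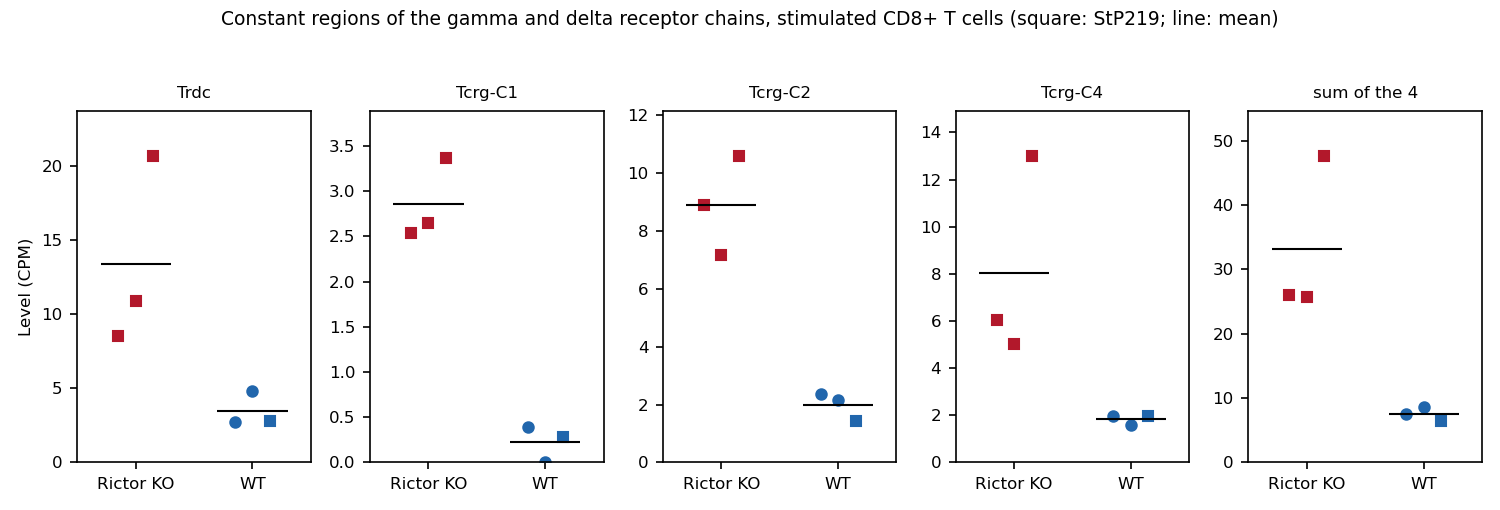
Level (CPM, axes from 0) of the delta constant region Trdc, of 3 gamma constant regions and of their sum in each library, Rictor KO left and WT right. Squares are libraries with code StP219, circles other codes, lines means of 3. All Rictor KO libraries lie above all WT libraries, and Tcrg-C2 was the only call.

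The whole list of NK and gamma-delta markers, 13 genes of which 7 were tested, summed to 55.5, 67.4 and 88.6 CPM in Rictor KO and 43.4, 46 and 35.6 CPM in WT libraries (exact permutation p = 0.1). The defining NK genes were near 0: Ncr1 and Tyrobp had 0 counts in all 6 libraries, and Klrb1c had 2 counts in Rictor KO and 0 in WT libraries. Elsewhere on the list Klra8 had 0 counts in both groups. Klrc1 had 123 raw counts in Rictor KO and 84 in WT libraries, Klre1 13 and 4, Fcer1g 4 and 1, and Klrd1 44 and 50. The lectin receptor gene Klrk1, which activated CD8+ cells also express, measured 11.1, 22.3 and 14.4 CPM in Rictor KO and 15.8, 23.6 and 11.6 CPM in WT libraries (-0.02 ± 0.28). Whether the rise of Tcrg-C2 and the level of any other called gene are linked to a small number of gamma-delta cells was not tested. Of the other lists, the defining B cell gene Ms4a1 had 0 counts in Rictor KO and 2 in WT libraries, the myeloid gene Lyz2 had 0 in both, and summed B cell and myeloid markers measured 54.2, 70.9 and 64 CPM and 29.2, 40.1 and 32.3 CPM in Rictor KO libraries, against 52, 46 and 59.7 CPM and 27.2, 36.4 and 33.9 CPM in WT libraries (exact permutation p = 0.2 and 0.8). Summed markers of CD4+ and regulatory T cells, most of it Ctla4 and Tnfrsf4, which stimulated CD8+ cells express too, measured 292, 291 and 391 CPM in Rictor KO and 264, 321 and 247 CPM in WT libraries (exact permutation p = 0.4), and erythroid and stromal markers, most of it Pecam1, 11.4, 12.5 and 15.4 CPM in Rictor KO and 9.46, 9.64 and 7.35 CPM in WT libraries (exact permutation p = 0.1).

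Metabolic lists that Raptor loss lowers in these cells showed 0 calls after Rictor loss. Only 0.162% of all genes were called there, so 0 calls in a short list is near that share. ATF4 is the transcription factor that answers amino acid shortage. Of its 18 tested response genes, 0 passed in Rictor KO against WT in edgeR, with a median of -0.31. At an unadjusted p under 0.05, 0 were higher and 5 lower, against 2.71% and 3.33% of all genes. Without overlap of the libraries, 2 were higher and 7 lower, where 13.5% of all genes did not overlap. In Raptor KO against WT, 15 were lower (median -2.95, background 5.42% of genes lower and 6.30% higher). In the direct test 16 of the 18 were higher in Rictor KO than in Raptor KO cells (median 2.63; background 7.00% higher and 8.30% lower). Asns, which makes asparagine, measured 118, 152 and 129 CPM in Rictor KO, 5.02, 2.61 and 4.7 CPM in Raptor KO and 132, 164 and 121 CPM in WT libraries, so the Rictor KO values overlap those of WT. Its difference was -0.05 ± 0.18 for Rictor KO over WT and 5.01 ± 0.29 for Rictor KO over Raptor KO (adjusted p = 4.46e-13). Slc7a3, which imports arginine and lysine, measured 45.7, 49.6 and 52.5 CPM in Rictor KO, 0.837, 0 and 1.18 CPM in Raptor KO and 41.8, 45 and 37.1 CPM in WT libraries (6.00 ± 0.38 for Rictor KO over Raptor KO, adjusted p = 3.81e-15). The comparisons with WT share the WT libraries.

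Other metabolic lists also had 0 calls against WT, near the share of 0.162% of all genes. Cytosolic tRNA synthetases had 0 of 21 calls in Rictor KO against WT (2 lower at an unadjusted p under 0.05; median -0.09) and 15 of 21 higher in Rictor KO than in Raptor KO cells. Glycolysis had 0 of 22 calls (1 lower at an unadjusted p under 0.05; median 0.01) and 15 of 22 higher than in Raptor KO cells, cholesterol synthesis 0 of 24 (0; -0.04) and 19 of 24, fatty acid synthesis 0 of 16 (1; 0.00) and 11 of 16, and nutrient transporters 0 of 19 (3; 0.00) and 14 of 19. Ldha, which makes lactate from pyruvate, measured 1238, 1246 and 1174 CPM in Rictor KO, 466, 512 and 430.5 CPM in Raptor KO and 1056, 1014 and 1074 CPM in WT libraries. All Rictor KO values were above all WT values, a difference that did not pass (0.22 ± 0.14, adjusted p = 0.942). Slc2a1, the glucose transporter GLUT1, measured 69.1, 74.3 and 56.8 CPM in Rictor KO, 31, 39.2 and 32.5 CPM in Raptor KO and 98.9, 103 and 78.1 CPM in WT libraries (-0.47 ± 0.16 for Rictor KO over WT, adjusted p = 0.378). Slc7a5, the large neutral amino acid transporter, differed by -0.26 ± 0.24 between Rictor KO and WT. Pck2, a mitochondrial enzyme that makes phosphoenolpyruvate, Gpt2, a mitochondrial alanine transaminase, and Fads2, a fatty acid desaturase, were higher in Rictor KO than in Raptor KO cells by 3.47 ± 0.23, 4.87 ± 0.43 and 3.32 ± 0.40, and differed from WT by 0.16 ± 0.17, -0.46 ± 0.24 and -0.28 ± 0.26. Of 76 ribosomal protein genes 0 passed against WT (2 higher at an unadjusted p under 0.05; median 0.17), of 37 proteasome genes 0 (2 higher; 0.03) and of 52 respiratory chain genes 0 (2 higher; 0.08).

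**Figure D5:**
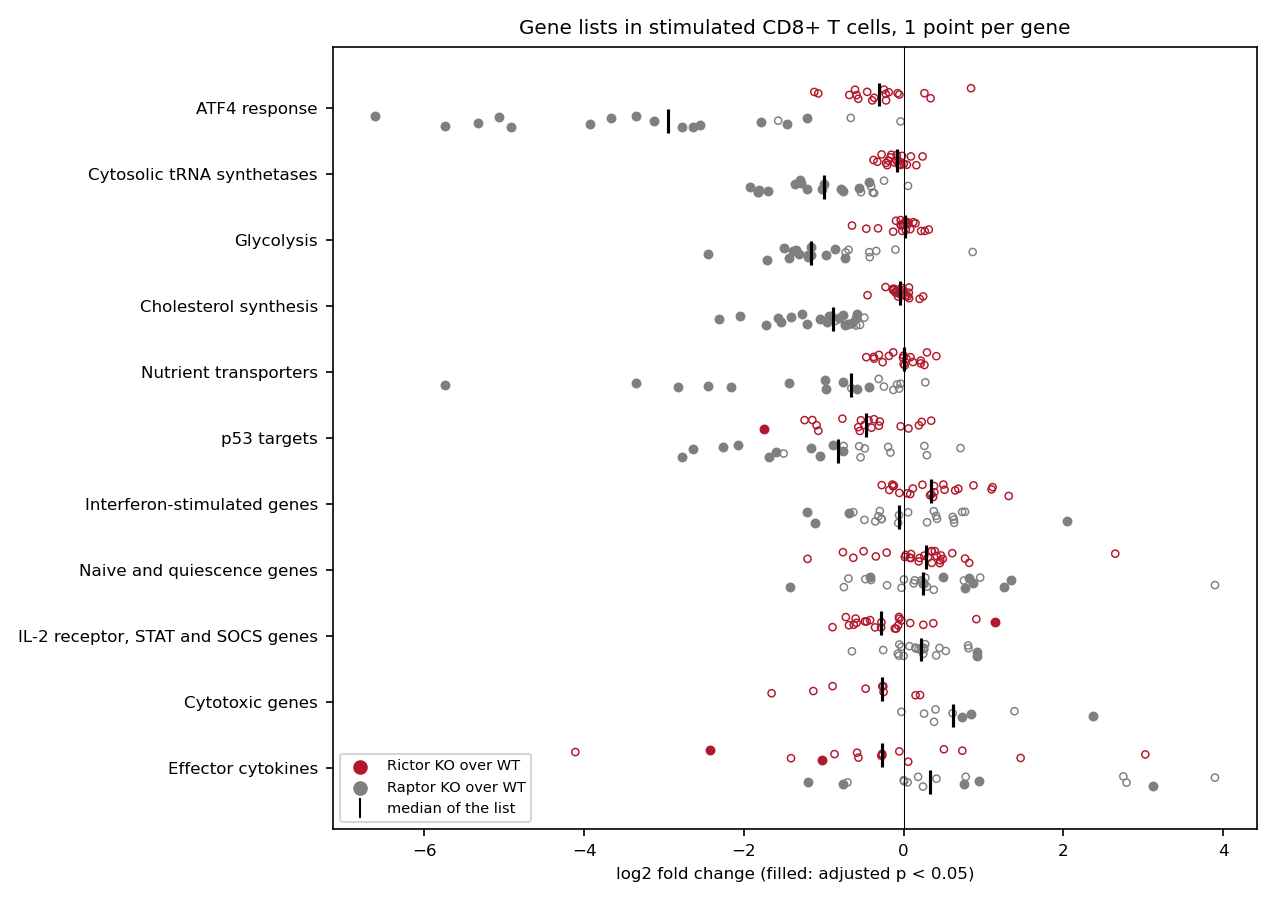
Log2 fold change against WT of every tested gene in 11 lists, Rictor KO over WT (red) above Raptor KO over WT (grey) in each row. Filled points passed the threshold, black bars are medians, and both effects share the same WT libraries. In the 5 metabolic lists at the top the red medians lie between -0.31 and 0.01 and the grey ones between -2.95 and -0.66.

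Directly compared, 735 genes were higher and 871 lower in Rictor KO than in Raptor KO cells. That split depends on the scaling: median-ratio size factors gave 962 higher and 710 lower, and totals that include Rn45s, which moved the median of all genes to 0.41, gave 401 and 115. For Raptor KO over WT, 661 genes were higher and 569 lower, against 567 and 701 with median-ratio size factors and 55 and 404 with totals that include Rn45s, where the median was -0.49. Of the 17 genes called against WT, 13 also separated Rictor KO from Raptor KO cells in this test, which uses the same Rictor KO libraries, and Cdkn1a, Lta, Adam19 and Gbp5 did not. Raptor KO library 1 stands apart by its level of Xist (1300 counts, against 0 in all Rictor KO and WT libraries) and its lack of Y-linked counts. Without it Cd52 no longer passed (adjusted p = 0.136), Gbp5 did (0.0465), and the calls of the other 15 were as before. Csf2, the growth factor gene, measured 4.12, 1.59 and 2.41 CPM in Rictor KO, 60.3, 98.3 and 32.5 CPM in Raptor KO and 9.07, 3.21 and 8.48 CPM in WT libraries (-4.53 ± 0.51 for Rictor KO over Raptor KO, adjusted p = 3.62e-06), and the chemokine gene Ccl9 and the chemokine receptor gene Ccr8 differed by -4.54 ± 0.57 and -4.00 ± 0.57. Il24, a cytokine gene of the IL-10 family, was at 0 in Rictor KO libraries 1 and 2 and at 2 counts in library 3, against 36, 62.7 and 6.66 CPM in Raptor KO libraries (adjusted p = 0.0054). Against WT, Csf2, Ccl9, Ccr8 and Il24 did not pass in Rictor KO cells (adjusted p = 0.705, 0.957, 0.958 and 0.834). Of 28 activation genes 3 were higher and 12 lower in Rictor KO than in Raptor KO cells, of 9 cytotoxic genes 0 and 6, and of 16 cytokine genes 2 and 6. Over all genes the shares were 7.00% higher and 8.30% lower. For Raptor KO the calls against WT on the same lists were 10 higher and 1 lower, 3 and 0, and 3 and 2, against 6.30% and 5.42% of all genes. These list counts were taken under the main scaling alone.

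The library code touches the comparison of Rictor KO cells with WT and that with Raptor KO cells. The values that follow are for the comparison with WT. All Rictor KO libraries carry StP219, so a code term is estimated from the WT and Raptor KO libraries of the series, CD4+ and IL-7-cultured cells included. The fit assumes the same code effect in Rictor KO cells, which these libraries cannot check. With the code as a term in the model, 21 genes passed (18 higher, 3 lower), 10 of them among the 17. Aff3, Trib2, Igf1r, Plac8, Tcrg-C2, Il6ra, Lta, Cd52, Atp2a3 and Evl were the 10. Ifng then differed by -1.89 (adjusted p = 0.0553), Cdkn1a by -1.19 (0.051), Adam19 by -0.96 (0.0504), Gbp5 by 1.09 (0.0739), Ndrg1 by -0.97 (0.162), Cd28 by 0.87 (0.169) and Gm49751 by -2.20 (0.178). Within StP219, where 1 WT library stands against 3 Rictor KO libraries and is assumed to vary like the other groups, 0 genes passed in edgeR (369 at an unadjusted p under 0.05). The differences there were -1.65 for Ifng, -1.21 for Cdkn1a, -0.49 for Ndrg1, 0.60 for Gbp5, -1.33 for Gzmb, -1.19 for Lta, 1.08 for Aff3, 1.38 for Trib2, 0.71 for Igf1r and 2.57 for Tcrg-C2. Of the 17, 14 were smaller in size within StP219 than over all libraries. Within StP219 the median of the p53 targets was -0.35 (1 gene higher and 5 lower at an unadjusted p under 0.05), that of the interferon genes 0.10 (3 and 1), that of the ATF4 genes -0.12 (0 and 0) and that of the effector cytokines 0.06 (1 and 3).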

How the data were processed

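RNA was sequenced from CD8+ T cells; per the labels' protocols, ultrasound broke total RNA into fragments, which received a 3′ adaptor and were amplified by PCR, with no molecular identifiers stated. Per the submitters' processing notes, STAR 2.6.0a and GRCm38 were used; how genes were counted, with which annotation and with which strand setting, is not given in the sources used here. Raw counts per gene (whole numbers, from the values) fill the table deposited by the authors. Rn45s, 83.3 to 88.4% of counts in the 6 libraries compared, was removed. Genes were matched to GENCODE M21 (26765 of 26802), and promoters came from RefSeq (GRCm38.p6).

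All 27 libraries were fitted in edgeR 4.0.16 (R 4.3.3; filterByExpr with a minimum count of 10 and a total of 15, TMM, robust quasi-likelihood fit with 1 term for each of the 9 groups), and 3 contrasts were tested with Benjamini-Hochberg adjustment. DESeq2 1.42.0 and limma 3.58.1 (voom) were alternatives. The SE is the log2 fold change divided by the square root of F. No 2 libraries of a group were alike within sampling noise (chi-square per degree of freedom 3.54 to 16.94).

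Members and gene lists were chosen with earlier results of these data known. Genes were named by rule: the first 3 symbols of a list, mTOR complex subunits, every called gene, the lowest p-values filling up to 10 genes per direction with a mean of at least 10 CPM and no overlap, and 5 per direction against Raptor KO. Other names were picked after their values were seen, and a few genes are not reported here. Intervals and tests cover these libraries only.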

Additional observations from a re-analysis of the deposited data

Results flagged for a closer look

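For 13 of the 17 genes called in Rictor KO against WT, the effect of losing Rictor differed from the effect of losing Raptor by a test of the difference itself, the direct contrast of Rictor KO with Raptor KO in edgeR (735 of 10493 genes, 7.00%, were higher and 871, 8.30%, lower in that contrast). The 13 were chosen among genes called against WT in the same Rictor KO libraries, so their number is a description. Only Raptor KO library 3 shares the library code StP219 of the Rictor KO libraries. With the code as a term, assumed to act alike in all groups, the same 13 passed. Within StP219, where Raptor KO library 3 stands alone, only sizes are given and no calls. There the difference was smaller in size for Ifng (-2.09), Gm49751 (-2.60), Ndrg1 (-1.17), Il6ra (1.54), Trib2 (1.42), Cd28 (0.44) and Cd52 (0.26). It was larger for the other genes of the 13. The cause of each difference was not tested.

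Among effector and mTORC2-linked genes, the Rictor KO effect minus the Raptor KO effect was -2.83 for Ifng, -2.79 for Gm49751, whose reads cannot be told apart from those of Ifng, and -1.69 for Ndrg1. Among receptors it was 2.28 for Igf1r, 1.79 for Il6ra and 0.91 for Cd28. It was 1.95 for Trib2, 1.77 for Aff3, 1.52 for Tcrg-C2, 1.22 for Evl, 0.95 for Plac8, 0.76 for Atp2a3 and 0.61 for Cd52. For Igf1r and Evl both effects passed against WT, with opposite signs (0.96 in Rictor KO and -1.32 in Raptor KO for Igf1r, 0.65 in Rictor KO and -0.57 in Raptor KO for Evl). The others passed against WT in Rictor KO cells and not in Raptor KO cells.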

How the results depend on the processing

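The 17 calls of Rictor KO against WT moved with the processing. There were 20 with median-ratio size factors, 17 with a filter at 5 CPM in 3 libraries, 22 among protein-coding genes only, 18 with DESeq2, 24 with limma-voom and 21 with the library code as a term. There were 61 with no filter for low counts, 37 with only the 2 groups compared in the fit, 5 with library totals that include Rn45s, 0 for a minimum fold of 1.5 (142 at an unadjusted p under 0.05 in edgeR) and 0 with StP219 alone (369). Leaving out 1 library at a time gave 1 to 27 calls, the lowest without WT library 1 and the highest without WT library 3. Among the 17, 15 passed with DESeq2, 14 with limma-voom, 16 with no filter, 9 with only the 2 groups and 3 with totals that include Rn45s. In the edgeR fit of the 2 groups Ifng, Cdkn1a, Ndrg1, Gbp5, Lta, Evl and Il6ra did not pass (adjusted p = 0.162, 0.143, 0.144, 0.102, 0.0762, 0.0792 and 0.0792). Gm49751 had no value there. With the replicate number as a block there were 52 calls (24 higher, 28 lower), 16 of them among the 17. The numbers did not pair the samples: same-numbered Rictor KO and WT libraries correlated at 0.019, -0.015 and -0.178 in their deviations from the group means, and each Rictor KO library correlated best with another number. The cause of these shifts was not tested.

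Calls of Rictor KO against Raptor KO (1606) were 516 with totals that include Rn45s, 358 for a minimum fold of 1.5, 716 with StP219 alone and 997 to 1443 without 1 library. Those of Raptor KO against WT (1230) were 459, 237, 310 and 753 to 1100 under the same settings. With the replicate block they were 1838 and 1472. The summed gamma-delta genes differed by 25.6 CPM, 26.4 with median-ratio size factors and 18.4 to 29.3 without 1 library, and the protein-coding share differed by -0.30 percentage points, -3.09 to 4.69 without 1 library. Of 3347 recomputed values of 187 genes, 3081 stayed on their side of the threshold with the same sign, or with a change of sign of under 1 SE where they had not passed, 141 no longer passed, 78 newly passed, 47 that passed under neither setting changed sign by at least 1 SE, and 0 that had passed changed sign. With 1522199 to 2515583 counts per library outside Rn45s, the median SE of a log2 fold change was 0.19 for the 6724 genes of at least 10 CPM, so differences of a small fold could be missed at this depth.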

Other observations

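Among the many genes whose libraries did not overlap between the 2 groups but whose adjusted p in edgeR lay above the threshold, 4 not yet described follow. Ctdsp2, a phosphatase gene, measured 23.2, 22.3 and 24.1 CPM in Rictor KO and 9.85, 20.3 and 10.2 CPM in WT libraries (0.85 ± 0.20, adjusted p = 0.0566 in edgeR), and passed with DESeq2 (0.0397), limma-voom (0.0214) and among protein-coding genes only (0.0304). Cpeb4, which encodes a protein that controls translation through the poly(A) tail, measured 8.56, 6.1 and 6.74 CPM in Rictor KO and 19.3, 19.8 and 11.3 CPM in WT libraries (-1.19 ± 0.29, adjusted p = 0.0983), and the integrin gene Itgav 54.6, 38.8 and 41.4 CPM in Rictor KO and 97.4, 85.6 and 64.5 CPM in WT libraries (-0.87 ± 0.21, adjusted p = 0.124). The survival kinase gene Pim2, named after its values were seen, measured 167, 225 and 204 CPM in Rictor KO and 93.8, 112 and 112 CPM in WT libraries (0.91 ± 0.22, adjusted p = 0.124). It passed with DESeq2 (adjusted p = 0.0402), limma-voom (0.0125), among protein-coding genes only (0.034) and with only the 2 groups compared in the fit (0.00168). With only the 2 groups Itgav passed too (0.0387) and Ctdsp2 did not (0.162), while Cpeb4 passed under none of these 4 alternatives. In the 6 edgeR fits that leave out a library, Pim2 passed in 0 and Ctdsp2, Cpeb4 and Itgav in 1 each. With the library code as a term in edgeR, Ctdsp2 passed (adjusted p = 0.0355), and Pim2 (0.077), Cpeb4 (0.204) and Itgav (0.184) did not.

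The hypoxia list held 1 call among 15 tested genes, Ndrg1, with 5 genes lower and 0 higher at an unadjusted p under 0.05 and a median of -0.24, which was 0.15 within library code StP219. Ddit4, an mTORC1 inhibitor gene induced by hypoxia and stress, measured 44.4, 54.1 and 55.8 CPM in Rictor KO, 33.5, 18.8 and 5.88 CPM in Raptor KO and 109, 155 and 63.6 CPM in WT libraries, with WT library 3 next to the Rictor KO values (-1.07 ± 0.36 for Rictor KO over WT, adjusted p = 0.443). The difference of largest size among genes with a mean of at least 10 CPM was that of Lad1, a gene of anchoring filaments. It measured 32, 25.2 and 16.4 CPM in Rictor KO libraries, 115, 55.9 and 46.3 CPM in Raptor KO libraries and 1.18, 2.14 and 3.39 CPM in WT libraries (3.36 ± 0.86 for Rictor KO over WT, adjusted p = 0.219).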
